A study of Rattus rattus with 18 samples.

Results

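The miR-135 family of the rat was measured here by 4 probes, rno-miR-135a-5p, rno-miR-135a-3p, rno-miR-135b-5p and rno-miR-135b-3p (the prefix for the species is left out below), which were picked by name among the 761 miRNA probes of the array. The family was chosen for its levels in the core and peri regions, so the difference between these regions, and every value of a single region, is given as a description without a test. The brains of 9 Sprague Dawley rats were sampled, of which 3 had a sham operation, 3 a transient middle cerebral artery occlusion (tMCAO) and 3 carry the label remote limb postconditioning (PostC), with 1 array of core and 1 of peri from each animal. In tMCAO a filament closes the artery that feeds much of the lateral hemisphere and is then withdrawn, whereas postconditioning applies short periods of reduced blood flow to a limb. The sources do not state the age of the rats, nor whether an artery was occluded in the PostC rats as well, so it is not known what the PostC group shares with either other group. The labels call core the temporo-parietal cortex and peri the striatum, while the methods give the reverse, and no tissue is assigned to either region here. The organism is labelled Rattus rattus, although Sprague Dawley is a strain of Rattus norvegicus, after which the probes (rno) are named.

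A miRNA gene is transcribed as a hairpin from which a 5p and a 3p arm can be cut. The arm that is loaded into an Argonaute protein represses mRNAs that pair with its seed, the bases near its 5′ end. In the nervous system miR-135a-5p is known as a repressor of the serotonin transporter and of a serotonin receptor, and the 5p arms have been studied in axon growth and in synaptic function. The 3p arms are the passenger strands of the same hairpins and usually accumulate less.

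The target sequences are shown because the 5p arms, which share a seed, are nearly identical over their whole length, while the 3p arms are not. They were read from the array files, 5′ to 3′, with the seed (bases 2 to 8) in capitals:
miR-135a-5p: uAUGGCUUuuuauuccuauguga
miR-135b-5p: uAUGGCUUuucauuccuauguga
miR-135a-3p: uGUAGGGAuggaagccaugaaa
miR-135b-3p: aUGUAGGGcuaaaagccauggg
The 5p arms, each 23 bases long, share their seed and differ by the single substitution U11C, counted from 1 at the 5′ end with miR-135a-5p first. Of the 761 probes, only these 2 target that seed, and the nearest target outside the family was 9 edits away from miR-135a-5p and 8 from miR-135b-5p. Whether either 5p probe also takes up RNA of the other 5p arm was not tested. The 3p arms have different seeds and lie 7 edits apart, with the run AAGCCAUG (from base 12 in miR-135a-3p and base 13 in miR-135b-3p) as their longest shared stretch. The 5p targets are poor in G and C, with 30.4% for miR-135a-5p and 34.8% for miR-135b-5p against a median of 47.8% over all probes, and 2.5% of the probes were at or below the former. Genomic positions of these miRNAs were not used here.

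All array values below are log2 intensities after background correction and normalization across the 18 arrays. Detection on an array required that the median of a probe's 4 spots lay more than 3 scaled median absolute deviations above the empty spots. The median miRNA spot lay between 49.1 and 261 units per array and the median empty spot between 36.7 and 278 units, so that 188 to 605 probes were detected per array. The neuronal miRNAs miR-124-3p and miR-9a-5p were detected on all 18 arrays, while the identity of the regions could not be checked from miRNAs. The files hold no slide or scan date, so no batch could be examined, and the number of arrays limits the precision.

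The array of the core of sham rat 2 stood apart and bears on the values of the 5p arms. On it 26 of the 761 probes were more than 1 log2 unit above every other array. PostC core 3 had 28 such probes and the most probes detected (605), PostC core 1 had 8 and no other array had more than 2. PostC peri 3 stood apart in the summed miRNAs of endothelium and vessel wall (36708 units, at most 21467 elsewhere) and of red blood cells (6628 units, at most 4272 elsewhere). On the core array of sham rat 2 the control probe a-PUC2MM2d, which carries mismatches to a spiked-in RNA, read 32538 units, against 72.2 to 829 units on the other arrays. The mismatch controls a2-PUC2MM-20B and a3-PUC2MM-20B read 15349 and 14336 units there and at most 1011 and 684 units elsewhere. The remaining mismatch controls were also highest there but by less, PUC2MM with 31866 units against 1305 to 22463 and PUC2MM-20B with 605 units against 37.5 to 356. The miRNAs known from oligodendrocytes, the myelin-forming cells, had a summed level of 17530 units on this array and of at most 6891 units on any other. Of its 4 members, miR-338-3p and miR-219a-5p were highest on this array, while miR-219a-2-3p and miR-338-5p were higher on another. The choroid plexus and ependymal miRNAs also stood apart there, with 5346 units against at most 2526, although miR-449a-5p and miR-34c-5p of that list were higher on another array. The summed neuronal miRNAs (92285 units) lay within the range of the remaining arrays (63912 to 99601 units). Whether any of these features has a part in the miR-135 values was not tested, and values without this rat are given beside the results it bears on.

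**Figure D1:**
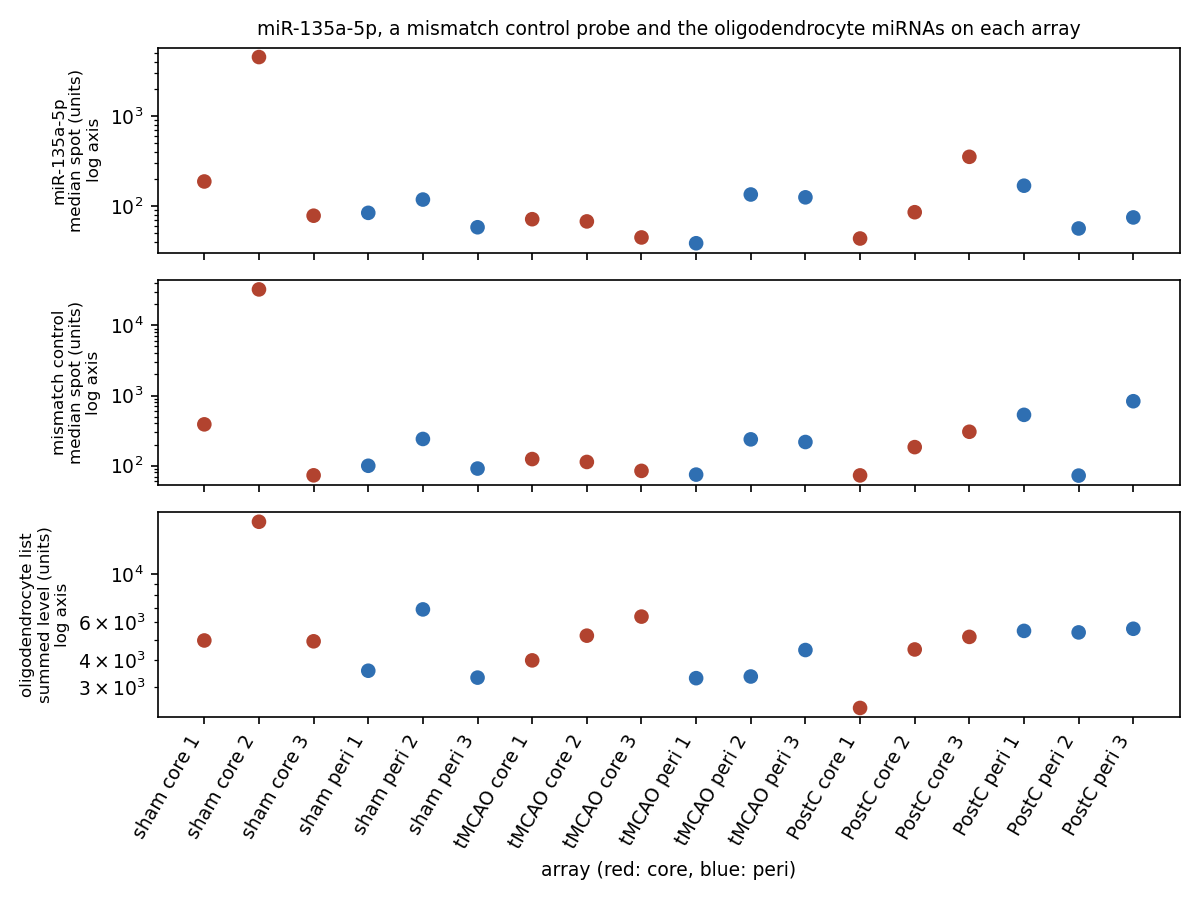
Raw median spot of miR-135a-5p, raw median spot of the mismatch control a-PUC2MM2d and summed level of the oligodendrocyte miRNAs (units, log axes) on each of the 18 arrays, with core in red and peri in blue. The core array of sham rat 2 has the highest value in all 3 panels.

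miR-135a-5p was near background on most arrays. Its values in sham core were 7.58, 12.32 and 6.91, and in sham peri 6.56, 7.15 and 6.14, for rats 1, 2 and 3. After tMCAO they were 6.82, 6.61 and 6.42 in core and 6.84, 6.88 and 7.03 in peri. In PostC rats they were 6.73, 5.95 and 7.67 in core and 7.23, 6.41 and 6.75 in peri. A single array, the core of sham rat 2, was thus far above all others, which spanned 5.95 to 7.67. The probe was detected on 5 of 18 arrays, which were the 3 of sham core, 1 of PostC core and 1 of PostC peri, and on none of the 6 tMCAO arrays. The detection limit was unequal, at 49.1 to 161 units in sham core, 77.4 to 346 in tMCAO and 52.9 to 566 in PostC. Of all probes, 336 to 509 were detected per array in sham core, 189 to 447 in tMCAO and 188 to 605 in PostC. Counts of detected arrays by group therefore depend on these limits as well. When the limit was instead set by the 25% of miRNA spots with the least signal, it was detected on 10 arrays, including 2 of tMCAO peri.

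The same array stood out in the untransformed spots and in the authors' normalized intensities. The median spot of miR-135a-5p read 4490 units in the core of sham rat 2, and no more than 351 units on any other array. The deposited normalized intensities in sham core were 102, 3703 and 37.4, and those outside sham core reached at most 81.6. In tMCAO they ranged from 0.13 to 30.7 and in PostC from 2.41 to 81.6.

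miR-135b-5p, the arm with the same seed, followed a like order of arrays. Its values in sham core were 7.85, 10.56 and 7.54, and in sham peri 6.93, 7.87 and 6.27, for rats 1, 2 and 3. After tMCAO they were 7.02, 6.78 and 6.71 in core and 6.86, 7.01 and 6.82 in peri. In PostC rats they were 6.84, 6.45 and 7.22 in core and 7.996, 6.77 and 7.02 in peri. The core of sham rat 2 was again the highest, followed by the peri of PostC rat 1, and all 6 tMCAO arrays lay in the narrow range from 6.71 to 7.02. The probe was detected on 9 of 18 arrays, 5 of sham, 1 of tMCAO and 3 of PostC, with the same unequal detection limits. Its median spot read 1311 units in the core of sham rat 2 and at most 284 units elsewhere. In the deposited table it stood at 142, 1133 and 94.7 in sham core, with 0.06 to 33.1 in tMCAO and 8.58 to 186 in PostC.

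The ratio of the 5p probes was also highest on the array that stood apart. The log2 ratio of miR-135a-5p to miR-135b-5p within an array was 1.77 in the core of sham rat 2 and between -0.77 and 0.45 on the other 17 arrays. On most of those 17 arrays 1 or both probes were not above background, so an unequal change of the arms cannot be read from it. Levels of different probes cannot be compared.

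The 3p arms were dim and varied little. miR-135a-3p ranged only from 6.45 to 6.95 over the 18 arrays, with 4 arrays called detected, and its lowest value was that of the core of sham rat 2, where the 5p arm of the same name was highest. miR-135b-3p ranged from 5.94 to 6.50, was detected on no array and was not tested. With the limit from the dimmest spots, miR-135a-3p was detected on 15 arrays and miR-135b-3p on 1. Hence 3 of the 4 members passed the filter for testing, which required detection on at least 3 arrays and was met by 532 of all 761 probes.

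**Figure D2:**
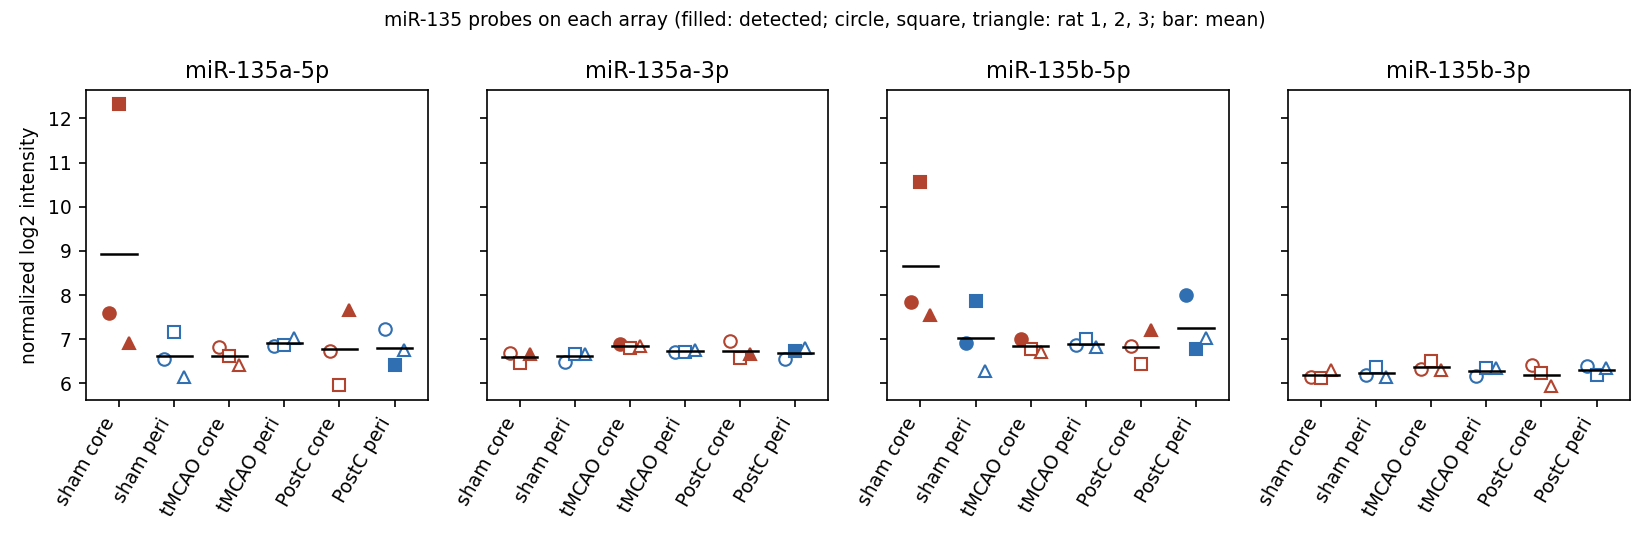
Normalized log2 intensity of the 4 miR-135 probes on each array by group and region (red, core; blue, peri), with filled symbols for detected, circles, squares and triangles for rats 1, 2 and 3, and bars for the mean of 3 rats. The 5p arms are highest in the core of sham rat 2, at 12.32 and 10.56, while the 3p arms stay between 5.94 and 6.95.

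Ordered by mean level, sham core was the first of the 6 groups for both 5p arms. For miR-135a-5p it stood at 8.94 ± 2.95 (SD, n = 3), followed by tMCAO peri at 6.92 ± 0.10, PostC peri at 6.80 ± 0.41, PostC core at 6.78 ± 0.86, sham peri at 6.62 ± 0.51 and tMCAO core at 6.62 ± 0.20. For miR-135b-5p sham core stood at 8.65 ± 1.66, followed by PostC peri at 7.26 ± 0.65, sham peri at 7.02 ± 0.80, tMCAO peri at 6.90 ± 0.10, tMCAO core at 6.84 ± 0.16 and PostC core at 6.83 ± 0.39. miR-135a-5p was detected on no array of tMCAO peri, sham peri or tMCAO core, and miR-135b-5p on none of tMCAO peri. The places of these groups rest on background readings. For none of the 4 members did neighbours in this order differ by more than the larger of their SDs. Without sham rat 2, sham core had the highest measured mean for both 5p arms, at 7.24 ± 0.48 and 7.69 ± 0.22 (SD, n = 2), and again no neighbours differed by more than the larger SD. The limit of tMCAO peri, set by its dimmest detected probes, was 8.16, above both means. Without that rat sham core can therefore not be placed against tMCAO peri.

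Within sham-operated rats, both 5p arms were higher in core than in peri of the same animal. For miR-135a-5p the log2 difference of core minus peri was 1.02, 5.17 and 0.76 in sham rats 1, 2 and 3, with a mean of 2.32 ± 2.47 (SD, n = 3). For miR-135b-5p it was 0.92, 2.69 and 1.27, with a mean of 1.63 ± 0.94. All 3 sham rats therefore had the same order for both arms, and the mean without rat 2 was 0.89 for miR-135a-5p and 1.10 for miR-135b-5p. Core was higher in all 3 sham rats for 21.8% of the miRNAs tested, and limma called 0% of them for this difference with Benjamini-Hochberg adjustment, while 30 had an unadjusted p under 0.05. miR-135a-5p was detected on no sham peri array and miR-135b-5p on 2 of 3, so the sizes of the differences, in particular of miR-135a-5p, are not exact. The median over all miRNAs tested was 0.02. In bulk tissue, fewer cells of a type and less RNA per cell cannot be told apart.

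After tMCAO the regions differed little for both 5p arms, of which miR-135a-5p was detected on no array and miR-135b-5p on 1. For miR-135a-5p the difference was -0.02, -0.26 and -0.61 in the 3 tMCAO rats, with a mean of -0.30 ± 0.29 (SD, n = 3). For miR-135b-5p it was 0.16, -0.23 and -0.11, with a mean of -0.06 ± 0.20. Core of miR-135a-5p was lower in all 3 rats, by an amount close to 0 in rat 1, and 24.6% of the miRNAs tested were also lower in all 3, with 1.32% called by limma. The combination shown by miR-135a-5p, core higher in every sham rat and lower in every tMCAO rat, was met by 6.77% of them. The direction of these differences in tMCAO is not supported by detected signal. In the deposited intensities, miR-135a-5p of tMCAO rat 1 stood at 21.7 in core and 0.13 in peri, the reverse order. The mean of miR-135b-5p turned to 0.15 with quantile normalization, 0.08 with the GC trend removed and 0.90 with the deposited intensities at a floor of 1.

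In PostC rats the order of the regions varied between animals. For miR-135a-5p the difference was -0.50, -0.46 and 0.92, with a mean of -0.01 ± 0.80 (SD, n = 3). For miR-135b-5p it was -1.16, -0.32 and 0.20, with a mean of -0.43 ± 0.68. Rat 3 was higher in core and rats 1 and 2 were higher in peri for both arms. Both arrays of PostC rat 3 stood apart in other features, as given above, and their part in this order was not tested. Without that rat the means were -0.48 for miR-135a-5p and -0.74 for miR-135b-5p. Without PostC rat 1 they were 0.23 and -0.06, and without PostC rat 2 they were 0.21 and -0.48. Limma called 0.752% of the miRNAs tested for this difference.

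**Figure D3:**
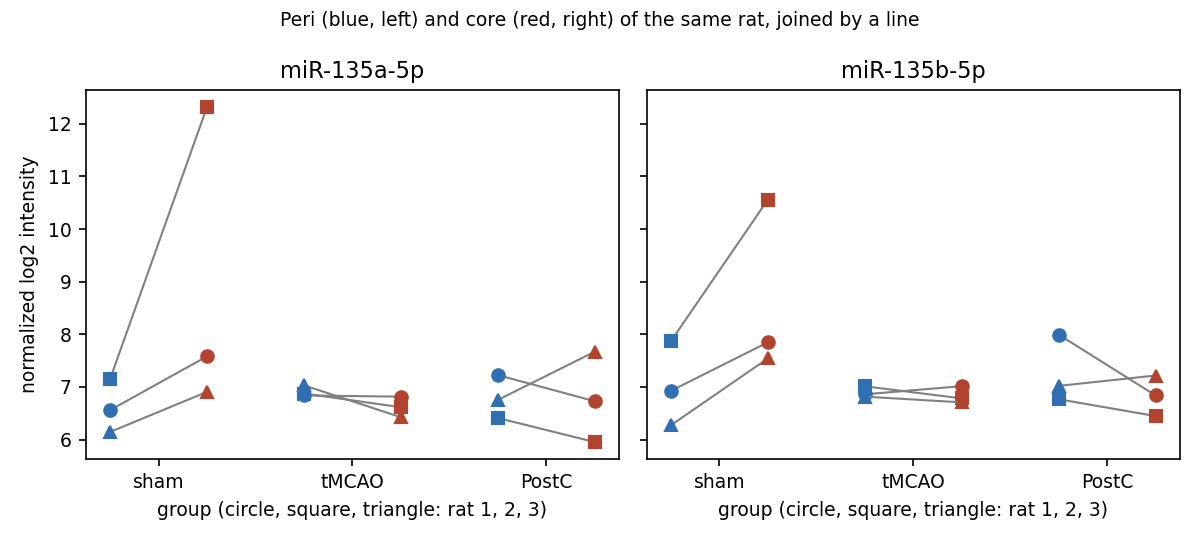
Normalized log2 intensity of miR-135a-5p and miR-135b-5p in peri (blue, left) and core (red, right) of the same rat, joined by a line, for the 3 rats (circle, square, triangle) of each group. All 3 lines go up from peri to core in sham for both arms, by 0.76 to 5.17 and by 0.92 to 2.69, while those of tMCAO and PostC go either way or down.

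The 3p arms gave small differences between regions, but as miR-135b-3p was detected on no array and miR-135a-3p on 3 of 9 core and 1 of 9 peri arrays, these say little about the arms themselves. miR-135a-3p had a core minus peri difference of -0.01 ± 0.21 in sham, 0.13 ± 0.05 in tMCAO and 0.03 ± 0.32 in PostC (SD, n = 3). For miR-135b-3p the values were -0.03 ± 0.21, 0.08 ± 0.13 and -0.11 ± 0.25. Only miR-135a-3p in tMCAO had the same sign in all 3 rats, with core higher by 0.09 to 0.19, as had 19% of the miRNAs tested. Plain background subtraction gave larger means, 0.84 for miR-135a-3p in sham and 0.67 for miR-135b-3p in tMCAO.

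Where a probe was not above background on any array of a group, its difference has only a lower bound, set by the dimmest detected probes of that group. miR-135a-5p was at least 3.90-fold higher in sham core than in sham peri, and at least 1.35-fold without sham rat 2. Against tMCAO core the bound was 3.24-fold, and 1.00-fold without that rat. Against tMCAO peri it was 1.71-fold for miR-135a-5p and 1.40-fold for miR-135b-5p, and without sham rat 2 no fold could be given for either. The bounds above 1.35-fold thus rested on that rat. All 3 sham core values of miR-135a-5p lay above the 3 of tMCAO core, by as little as 0.09 between the nearest rats, and those of miR-135b-5p lay above both tMCAO core and PostC core. Among the miRNAs tested, 24.2% were lower without overlap in tMCAO core and 11.1% in PostC core than in sham core.

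The groups were then tested on rat means, in which both regions of an animal were averaged. These means still contain the core and peri levels for which the family was chosen. In sham, the SD of miR-135a-5p was 2.95 in core and 0.51 in peri. That of miR-135b-5p was 1.66 in core and 0.80 in peri. High sham core values thus raise the sham rat means as well, so the tests, in particular those against sham, are not independent of that choice. The question was whether each tested member was lower or higher over both regions after tMCAO or in PostC rats. The family as a whole was not tested. The replicate was the rat, and limma with Benjamini-Hochberg adjustment over 532 miRNAs was used throughout.

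Between tMCAO and sham no member passed the threshold, while 11.8% of the miRNAs tested did. miR-135a-5p met the detection filter only with the 3 sham core arrays, where it was highest, counted in. It had rat means of 7.07, 9.74 and 6.53 in sham and 6.83, 6.75 and 6.73 in tMCAO. The groups overlapped, and the difference was -1.01 (SE 0.65, 95% interval -2.45 to 0.43, adjusted p = 0.307). As the probe was detected on no tMCAO array and on no sham peri array, no fold or bound of the rat means could be given. miR-135b-5p stood at 6.87 ± 0.09 in tMCAO and 7.83 ± 1.22 in sham (SD, n = 3), a difference of -0.97 (SE 0.47, interval -2.02 to 0.08, adjusted p = 0.189). Without sham rat 2 the differences were -0.03 (adjusted p = 0.952) for miR-135a-5p and -0.28 (adjusted p = 0.455) for miR-135b-5p, so their size rested on that animal. With the trend over GC content removed they were -0.61 and -0.71.

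miR-135a-3p was 6.79 ± 0.03 in tMCAO and 6.61 ± 0.05 in sham (SD, n = 3), and the 3 tMCAO rats were all above the 3 sham rats. The difference of 0.18 (SE 0.10, interval -0.04 to 0.40) did not pass the threshold either (adjusted p = 0.239), and 17.7% of the miRNAs tested had tMCAO rats that were all higher. The probe was detected on 1 of 6 arrays in each of these groups.

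Between PostC and sham, where 0.188% of the miRNAs passed the threshold, no member did. Here too miR-135a-5p met the detection filter only with the 3 sham core arrays counted in. It was detected on no sham peri array and on 2 of 6 PostC arrays. The difference was -0.99 for miR-135a-5p (SE 0.65, interval -2.43 to 0.45, adjusted p = 0.534) and -0.79 for miR-135b-5p (SE 0.47, interval -1.84 to 0.26, adjusted p = 0.49996). Without sham rat 2 these became -0.01 (adjusted p = 0.986) and -0.10 (adjusted p = 0.863). For miR-135a-3p the difference was 0.10 (interval -0.12 to 0.33, adjusted p = 0.673). The comparisons with sham share the sham rats, so sham rat 2 enters both.

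Between PostC and tMCAO, where 5.64% of the miRNAs passed, no member did, and sham rat 2 enters only through the shared spread and normalization. The difference was 0.02 for miR-135a-5p (interval -1.42 to 1.47, adjusted p = 0.989), 0.18 for miR-135b-5p (interval -0.87 to 1.23, adjusted p = 0.883) and -0.08 for miR-135a-3p (interval -0.30 to 0.14, adjusted p = 0.763). When only these 2 groups were fitted, so that the spread of sham no longer entered, the intervals narrowed to -0.51 to 0.56 for miR-135a-5p and -0.27 to 0.63 for miR-135b-5p. That of miR-135a-3p widened slightly, to -0.32 to 0.16. The rats of PostC and tMCAO did not overlap for miR-135a-3p, with PostC lower, as for 7.52% of the miRNAs tested, but the nearest rats lay only 0.00016 log2 units apart.

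**Figure D4:**
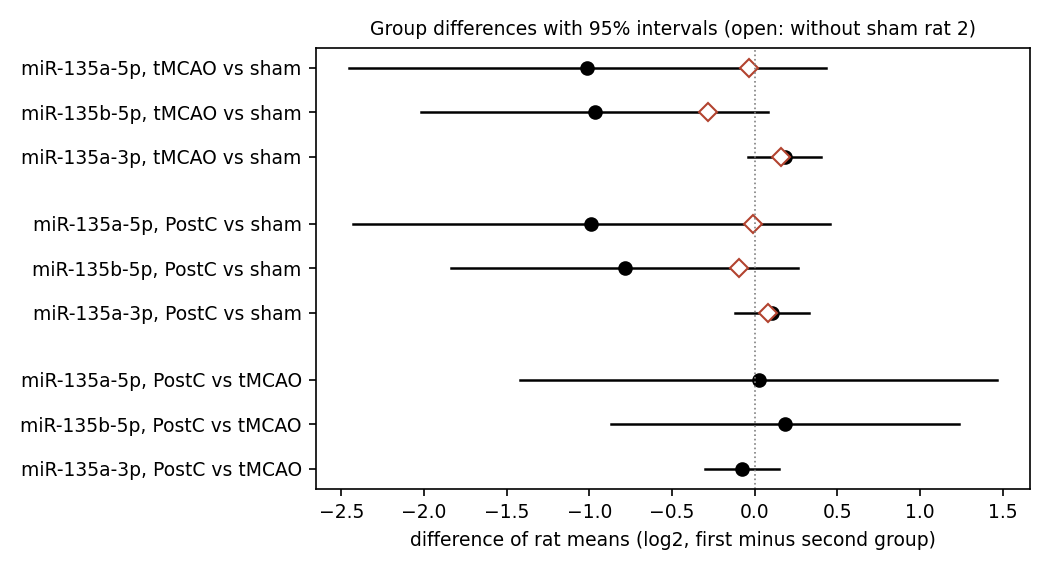
Difference of the rat means (log2, first minus second group) for the 3 members tested in each comparison, with 95% intervals from limma as lines and the value without sham rat 2, in the comparisons with sham, as open diamonds. Every interval includes 0, and the diamonds of the 5p arms lie between -0.28 and -0.01.

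Among the miRNAs outside the family, those whose values over the 18 arrays were most like miR-135b-5p, taken as the reference for its mean normalized intensity and not for its amount, were miR-219a-5p (Pearson r = 0.960), miR-20b-5p (0.954), miR-190a-3p (0.938), miR-542-3p (0.928) and miR-1298 (0.924). miR-219a-5p is a miRNA of oligodendrocytes that promotes their maturation. miR-135a-5p itself had r = 0.946 and miR-135a-3p had r = -0.511. These values describe 18 arrays of 9 rats that share their normalization, and the array of the core of sham rat 2 weighs heavily in them. Without it the r of miR-219a-5p was 0.841, that of miR-135a-5p 0.787 and that of miR-1298 0.645, and 3 of the 5 miRNAs remained among the 5 most like.

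In the core of sham rat 2, miR-135a-5p exceeded the next array by 4.65 log2 units, the largest gap of the 532 miRNAs tested. miR-1298 followed with 3.47, miR-219a-5p with 2.72, miR-135b-5p with 2.56, the oligodendrocyte miRNA miR-338-3p with 2.48 and miR-20b-5p with 2.29. In all, 3.95% of the miRNAs tested were more than 1 log2 unit above every other array there.

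**Figure D5:**
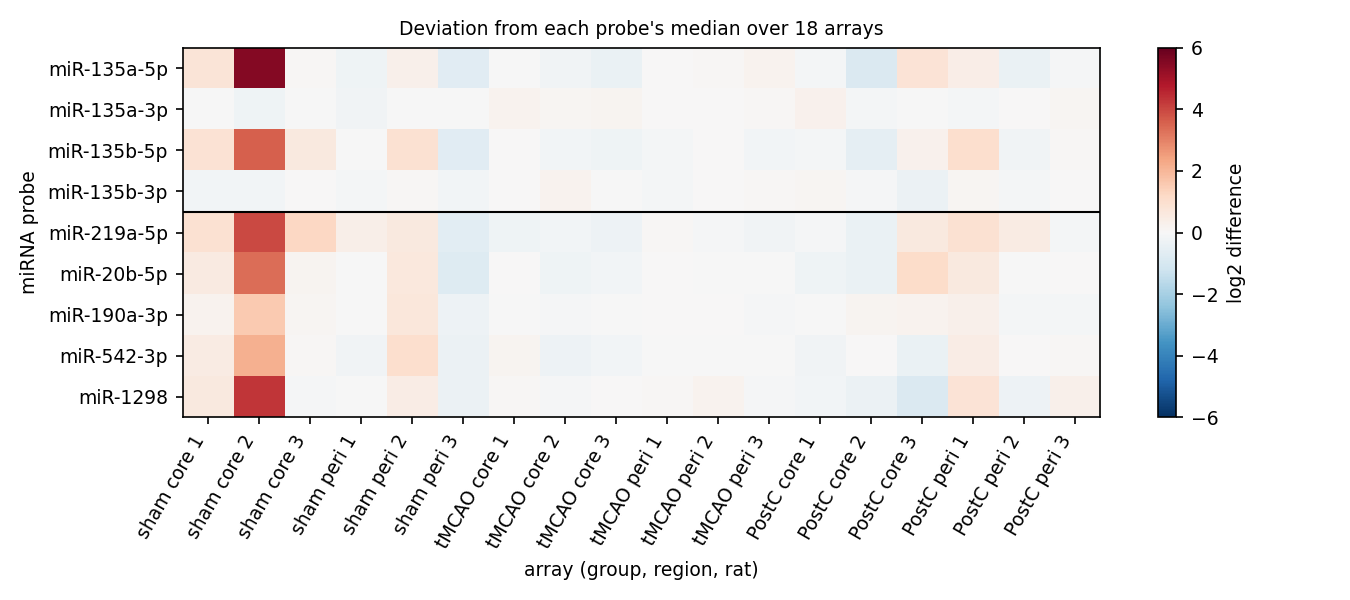
Log2 difference of each probe from its own median over the 18 arrays (red, above; blue, below) for the 4 miR-135 probes, above the line, and the 5 miRNAs most like miR-135b-5p, below it. The column of sham core 2 is the darkest for both 5p arms and for the 5 miRNAs, and the 3p arms are pale throughout.

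Lists of miRNAs known from the synapse and from the cell types of the tissue give the setting of these values. Between tMCAO and sham, 4 of 8 neuronal miRNAs fell in the rat means and none rose (list median -0.64, all miRNAs -0.02), where 11.8% of all miRNAs tested passed, 24 higher and 39 lower. They were miR-218a-5p, a miRNA of motor and other neurons (-2.23, SE 0.35, adjusted p = 0.00555), miR-137-3p, which acts in neuronal maturation (-1.61, adjusted p = 0.0184), miR-153-3p (-1.35, adjusted p = 0.0452) and miR-9a-5p, a regulator of neurogenesis (-1.20, adjusted p = 0.0351). Without sham rat 2, 1 of the 8 passed the threshold, with a list median of -0.71, and 6.95% of all miRNAs passed. Of 16 synaptic miRNAs, among which the miR-135 arms were not counted, 3 fell, all of them also on the neuronal list, and miR-191a-5p rose (0.61, adjusted p = 0.0409), with a list median of 0.04. Leaving out sham rat 2, 1 fell and none rose, with a list median of 0.01.

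Of 5 leukocyte and microglial miRNAs tested, 2 rose after tMCAO (list median 0.75), namely miR-150-5p, of lymphocytes (0.92, adjusted p = 0.0298), and miR-155-5p, of activated immune cells (adjusted p = 0.0126), which was detected on 2 tMCAO arrays and on no sham array. Of 2 red blood cell miRNAs tested, miR-486 rose (1.39, adjusted p = 0.00950; list median 0.77). Without sham rat 2, 1 leukocyte miRNA (list median 0.85) and 1 red blood cell miRNA (list median 0.77) passed. None of 4 oligodendrocyte miRNAs (median -0.56, and -0.12 without sham rat 2) and none of 4 endothelial and vessel wall miRNAs (median -0.13, and -0.02 without that rat) passed. Of 4 choroid plexus and ependymal miRNAs tested, miR-34b-5p fell (adjusted p = 0.0290, detected on no tMCAO array; list median -0.69), and none passed without sham rat 2 (list median -0.57).

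Between PostC and sham none of these list members passed the threshold, as 0.188% of all miRNAs did, and the neuronal list had a median of -0.37 (-0.62 without sham rat 2). Compared with tMCAO, miR-218a-5p was higher in PostC (1.48, SE 0.35, adjusted p = 0.0317), and no other list member passed, except for 1 choroid plexus and ependymal miRNA when sham rat 2 was left out, where 8.65% of all miRNAs passed. Between core and peri of the sham rats, 3 of 4 oligodendrocyte miRNAs had a higher mean in core, with a list median of 1.10 against 0.02 over all miRNAs and 0.03 for the neuronal list. Both red blood cell miRNAs tested (median 0.69) and all 5 leukocyte and microglial miRNAs tested (median 0.06) were also higher in core. Leaving out sham rat 2, the median was 0.73 for the oligodendrocyte, 0.63 for the red blood cell and 0.17 for the leukocyte list. In tMCAO rats the core minus peri medians were 0.16 for the oligodendrocyte (2 of 4 higher in core), 1.29 for the leukocyte (5 of 5), 1.06 for the red blood cell (2 of 2) and -0.27 for the neuronal list (3 of 8), against -0.03 over all miRNAs. In PostC rats they were -0.40 (0 of 4), 0.87 (5 of 5), 0.06 (1 of 2) and -0.21 (2 of 8), against 0.05. The part of these cell types in the values of miR-135 was not tested.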

How the data were processed

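RNA of 18 tissue samples was hybridised to single-colour (Cy5) µParaflo chips. The labels name a miRNeasy kit and the methods Trizol for the extraction. For each of 3968 spots the authors deposited the median pixel intensity, with neither background subtraction nor normalization (3044 miRNA spots, 924 controls, 612 of them empty). The authors also deposited a table of 810 background-subtracted intensities on a linear scale, normalized by locally weighted regression, which was used as an alternative. No genome build applies.

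Spot intensities were corrected with normexp (offset 50, all spots), controls were dropped, cyclic loess over 18 arrays was applied to log2 values, and 4 spots per probe were averaged. The normalization makes every value relative to the other miRNAs. Tests covered probes with detection on 3 or more arrays and used limma 3.58.1 in R 4.3.3 (lmFit, eBayes with a variance trend, threshold 0.05 after Benjamini-Hochberg adjustment), on values averaged over both regions of each of 9 different rats, with all 3 groups sharing the spread. For groups of 3 rats, the smallest p of an exact permutation test is 0.1. The fit was tested on simulated data. Sequences and figures used Python 3.11.15, numpy 2.4.6, pandas 2.3.3 and matplotlib 3.10.9.

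The miRNAs named are the family, the 5 miRNAs most correlated with its member of highest mean intensity, and the list members past the threshold (at most 4 a list). The members, lists and tests were chosen with earlier results of these data known. Alternatives covered background, normalization, the deposited table, GC content, spot averaging, filters, the test, a replicate block and leaving out each rat. Leaving out sham rat 2 before normalization was added after seeing the data.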

Additional observations from a re-analysis of the deposited data

Results flagged for a closer look

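The core minus peri difference of miR-135a-5p stood out because every sham rat had core higher and every tMCAO rat had core lower. That combination was met by 6.77% of the miRNAs tested, and in tMCAO rat 1 the difference was only -0.02. Its mean was 2.32 log2 units in the sham rats and -0.30 in the tMCAO rats (n = 3 each). The difference between the groups was not tested, since the family was chosen for its levels by region. The probe was detected on no sham peri array and on no tMCAO array, so these differences are not exact, and the direction in tMCAO is not supported by detected signal. In the deposited intensities tMCAO rat 1 had the reverse order, 21.7 in core and 0.13 in peri. As a bound it was at least 3.90-fold higher in sham core than in sham peri, and at least 1.35-fold without sham rat 2, where the sham mean was 0.89.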

How the results depend on the processing

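For the 9 tested comparisons of single members, 190 of 197 alternatives kept the direction and the side of the threshold. None of the 9 passed in the main setting, so a much smaller difference of the same sign also counts as kept. This count therefore does not measure how stable the sizes were. miR-135b-5p passed between tMCAO and sham with quantile normalization (-1.16, adjusted p = 0.0484) and with the deposited intensities at a floor of 1 (-3.09, adjusted p = 0.0212), against a range of adjusted p from 0.0212 to 0.455 over all its alternatives. The difference of miR-135a-5p between tMCAO and sham ranged from -3.20 to -0.03 (adjusted p 0.0604 to 0.952). Between PostC and tMCAO, miR-135a-5p turned to -0.16 with the GC trend removed and to -0.07 and -0.19 without PostC rats 1 and 3 (range over left-out rats -0.19 to 0.33), miR-135b-5p to -0.0027 without PostC rat 1 (range -0.0027 to 0.40), and miR-135a-3p to 0.031 with the deposited floor of 50, all with an adjusted p of 0.591 or more. Over the 9 pairs of rats with the same number in different groups, correlations lay between -0.405 and 0.227. Whether such rats were handled together is not known. With the replicate block the adjusted p between tMCAO and sham was 0.330 for miR-135a-5p and 0.197 for miR-135b-5p, and no call of a member changed. The number of miRNAs called between tMCAO and sham was 124 with quantile normalization, 130 with median scaling (which moved the median of all miRNAs by -0.19, to -0.21, with 26 higher and 104 lower against 24 and 39 in the main setting), 126 with the deposited floor of 1, 21 among miRNAs detected on all arrays, 23 with the methods' t-test, and 8 (without tMCAO rat 2) to 96 (without tMCAO rat 3) with a rat left out, against 63. Between PostC and sham it was 1, with 0 under plain subtraction, median scaling, both deposited floors, GC trend removal, detection on all arrays, the replicate block, the t-test and linear averaging, 2 with quantile normalization, 4 with the rat as a random block, 3 without sham rat 2 before normalization, and 0 to 3 with a rat left out. Limma gave 75 unadjusted p under 0.05 there. Between PostC and tMCAO it was 30, with 15 under plain subtraction, 3 on all arrays, 6 with the t-test, 51 without sham rat 2 before normalization, 46 without it after normalization, and 9 (without tMCAO rat 2) to 39 with a rat of either group left out. Median scaling moved the median of all miRNAs by 0.11 there and by -0.14 between PostC and sham. Leaving out sham rat 2 before normalization gave -0.24 (adjusted p = 0.575) for miR-135a-5p and -0.45 (adjusted p = 0.162) for miR-135b-5p between tMCAO and sham. The core minus peri differences in sham were positive for both 5p arms under every alternative, from 0.85 to 4.69 for miR-135a-5p and from 1.07 to 2.96 for miR-135b-5p. Plain subtraction gave 2.96 for miR-135b-5p, 0.84 for miR-135a-3p and 0.25 for miR-135b-3p in sham, 0.57 and 0.67 for the 3p arms in tMCAO, and -0.49 for miR-135b-3p in PostC. The deposited floor of 1 gave 2.80 for miR-135b-5p in sham, -0.71 for miR-135a-5p, 0.90 for miR-135b-5p, 0.57 for miR-135a-3p and 1.01 for miR-135b-3p in tMCAO, and -1.19, -1.35 and 0.25 for miR-135a-5p, miR-135b-5p and miR-135b-3p in PostC. Quantile normalization gave 0.15 for miR-135b-5p, and median scaling 0.054 for miR-135a-3p and -0.047 for miR-135b-3p, in tMCAO. The miRNAs called for this difference in tMCAO were 7, with 14 under median scaling, 1 on all arrays and 5 to 17 with a rat left out. In PostC they were 4, with 2 under plain subtraction, the deposited floor of 1 and without sham rat 2 before normalization, 0 with the floor of 50 and on all arrays, and 2 to 13 with a rat left out. The causes of these shifts were not tested. No member was detected on all arrays, and with the deposited floor of 50 some differences had both groups at the floor, so these alternatives gave no value there. Where a member is below the detection limit, as miR-135a-5p on all tMCAO arrays, signal over background limits every difference.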
